A study of Mus musculus with 4 samples.

Results

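Myeloid cytokine receptors are the surface proteins through which blood progenitors sense the factors that drive granulocyte and monocyte production. In the interleukin-3 and GM-CSF receptors, an alpha chain specific to the ligand (Il3ra, Csf2ra) binds first and then recruits a beta chain (Csf2rb, Csf2rb2) that carries the signal to JAK2 and STAT5. In the interleukin-6 and interleukin-11 receptors, an alpha chain (Il6ra, Il11ra1) pairs with gp130, the product of Il6st, which signals through JAK kinases and STAT3. Csf3r is the receptor of G-CSF and signals as a pair of identical chains, Csf1r is the receptor tyrosine kinase of M-CSF and interleukin-34, and Il1r1 is the signalling receptor of interleukin-1. In bone marrow these receptors are known for early priming of stem and progenitor cells towards the myeloid lineages and for emergency production of neutrophils and monocytes.

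The 10 genes were taken as a named list, and every probe set whose sole gene symbol in the platform's probe table was a listed gene was kept. This found 18 probe sets for 9 of the 10 genes, out of 34958 probe sets and 18194 genes in all. The rule found no probe set for Il11ra1, which was not analysed here. Of the 9 genes, 6 had more than 1 probe set and Il3ra, Csf2rb2 and Csf3r had 1 each. The value given for a gene is that of its probe set with the highest mean over the arrays, and the others are given beside it.

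Expression was measured on 4 Affymetrix arrays of RNA from bone marrow cells of 8-week-old mice of the strain C57BL/6 (B6), 2 arrays labelled WT and 2 labelled Alox15-/-. The latter are named for loss of Alox15, the gene of arachidonate 15-lipoxygenase, and no other allele or treatment is named for either group. The cells were sorted as Lin-c-Kit+Sca-1+, a gate that holds stem cells together with multipotent progenitors, and the labels call them HSCs. The labels number the replicates as biological but name no animals or pools, so the spread behind the p-values may include technical as well as biological variation.

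On the log2 scale of the deposited values, Alox15 read 4.63 and 4.35 on the WT arrays against 10.68 and 10.75 on the arrays labelled Alox15-/-, which goes against the label. The sources used here do not place the deleted part of the gene relative to this probe set, and whether the labels of the groups were exchanged was not tested. Directions below are those of the arrays as labelled, and every one of them would be reversed if the labels were exchanged. All 10 measured markers of the sorted stem and progenitor population, Kit and Procr among them, read above the highest of 27 bacterial control probe sets on every array. Ly6a, the gene of Sca-1, was not analysed here. The bacterial controls should carry no mouse signal, and the highest read 4.95 to 5.17. Of the 18 receptor probe sets, 17 also lay above them on every array, and the exception was a second probe set of Il1r1 at 2.07 to 2.34.

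None of the 9 receptor genes passed the threshold for a difference between the labelled groups (limma, Benjamini-Hochberg adjusted p under 0.05 over all genes). The threshold was passed by 1 of 18194 genes, or 0.0055%, which was Alox15 itself. At an unadjusted p under 0.05 limma placed 1 receptor gene, Csf2rb2, against 7.77% of all genes in either direction and 3.57% on its side, lower. Means were higher in the arrays labelled Alox15-/- for 5 receptor genes and lower for 4, with a median difference of 0.10 on the log2 scale against 0.02 over all genes. The median size of the difference, whatever its sign, was 0.26 against 0.14 over all genes. The sets are not matched in level, since the background includes dim genes and the 9 receptor genes were all above the bacterial controls. Standard errors of the receptor differences ran from 0.13 to 0.26. Groups did not overlap for 4 of the 9 receptor genes, against 38.5% of all genes, so this count is near the background. They were Csf2rb, Csf3r and Il6st, 3 genes higher in the arrays labelled Alox15-/- (21.4% of all genes), and Csf2rb2, the 1 gene lower in them (17.1% of all genes).

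**Figure D1:**
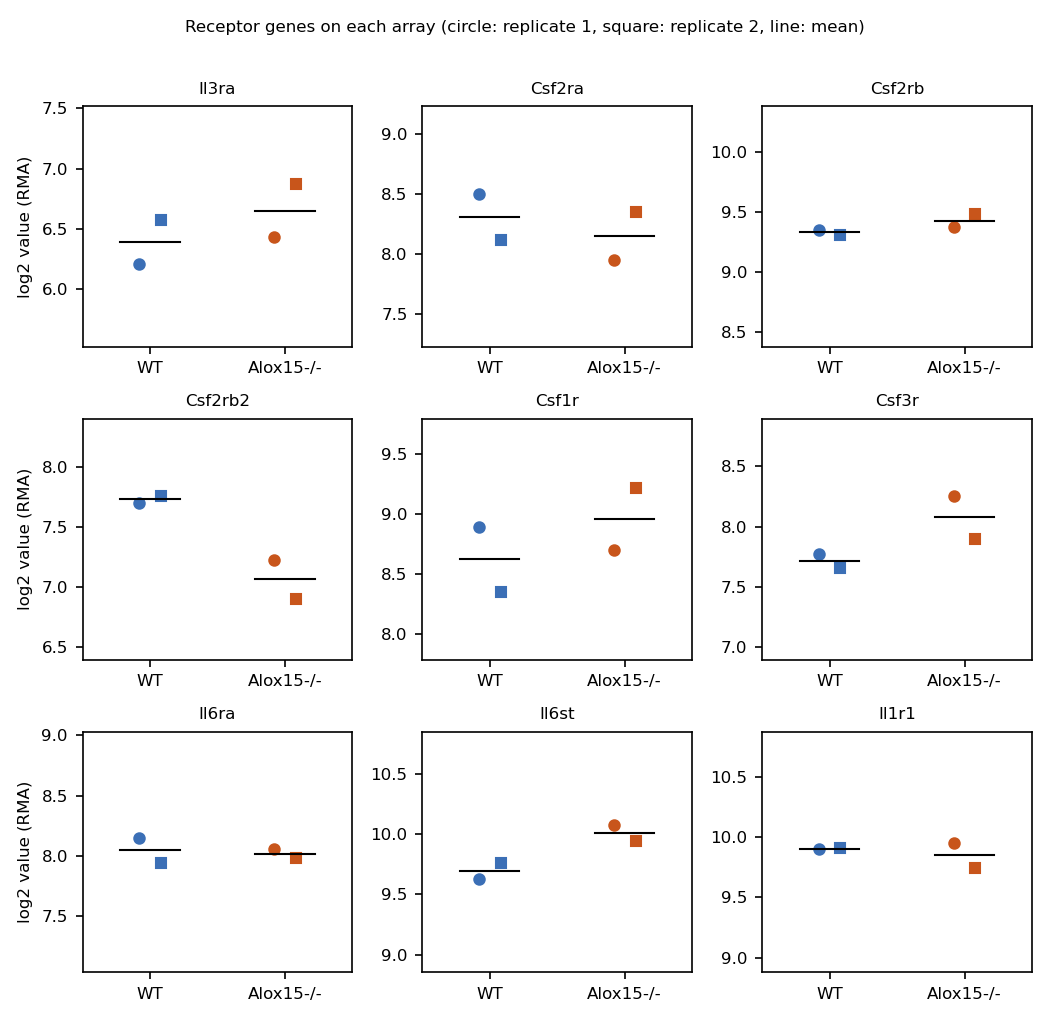
Deposited log2 value (vertical axis, each panel spanning the same range of log2 units) of the 9 receptor genes on the WT and Alox15-/- arrays, at the probe set with the highest mean; points are arrays and lines are means of 2 arrays. The groups are apart for Csf2rb2, Csf3r, Il6st and, by a gap of 0.0175, Csf2rb, and overlap for the other 5 genes.

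Csf2rb2 had the largest difference of the 9 receptor genes. It encodes the beta chain that in mice serves interleukin-3 alone. Its probe set, 1449360_at, read 7.70 and 7.76 on the WT arrays against 7.22 and 6.90 on the arrays labelled Alox15-/-. Both WT arrays lay above both others, with a gap of 0.47 between the nearest arrays of the groups and an SD of 0.04 in WT against 0.23 on the arrays labelled Alox15-/- (n = 2 each). The difference was -0.67 ± 0.16 (SE), a level 1.59-fold lower, with a 95% interval of -1.07 to -0.26. With limma the unadjusted p was 0.00764 and the adjusted p was 0.571, and 1.32% of genes had a lower p. In bulk RNA, fewer cells that carry a transcript and less of it per cell cannot be told apart.

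Csf2rb encodes the beta chain shared by the interleukin-3, GM-CSF and interleukin-5 receptors, and it lies next to Csf2rb2 among the protein-coding genes of the RefSeq table. At probe set 1455660_at it read 9.36 and 9.31 in WT against 9.37 and 9.49 on the arrays labelled Alox15-/-. The groups did not overlap, but the gap of 0.0175 was smaller than the SD within either group (0.03 and 0.08, n = 2 each). The difference was 0.10 ± 0.13 (SE), with a 95% interval of -0.23 to 0.43 and a limma adjusted p of 0.885. A second probe set, 1421326_at, read 9.01 and 8.06 in WT against 8.74 and 9.15 on the arrays labelled Alox15-/-, so here WT replicate 2 stood below the other 3 arrays and the groups overlapped.

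The beta chain genes are close paralogs, and the platform's table gives a further probe set, 1450200_s_at, to both. By the rule it counted for neither. It read 7.45 and 7.16 in WT against 7.42 and 7.47 on the arrays labelled Alox15-/-, a difference of 0.14 with overlapping groups. The lower reading of Csf2rb2 was not seen there, but a probe set given to both genes cannot show a change in either gene alone. Within each array, Csf2rb2 minus Csf2rb was -1.66 and -1.55 in WT against -2.15 and -2.58 on the arrays labelled Alox15-/-. That quantity sets probe sets of unlike response side by side, so only its change of -0.77 between the groups has a meaning. In the exact two-sided permutation test over arrays it had p = 0.333, the smallest that 2 arrays against 2 allow. The test could thus not reach the 0.05 threshold and cannot decide. The comparison was not planned, and most of its change is the -0.67 of Csf2rb2 itself.

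**Figure D2:**
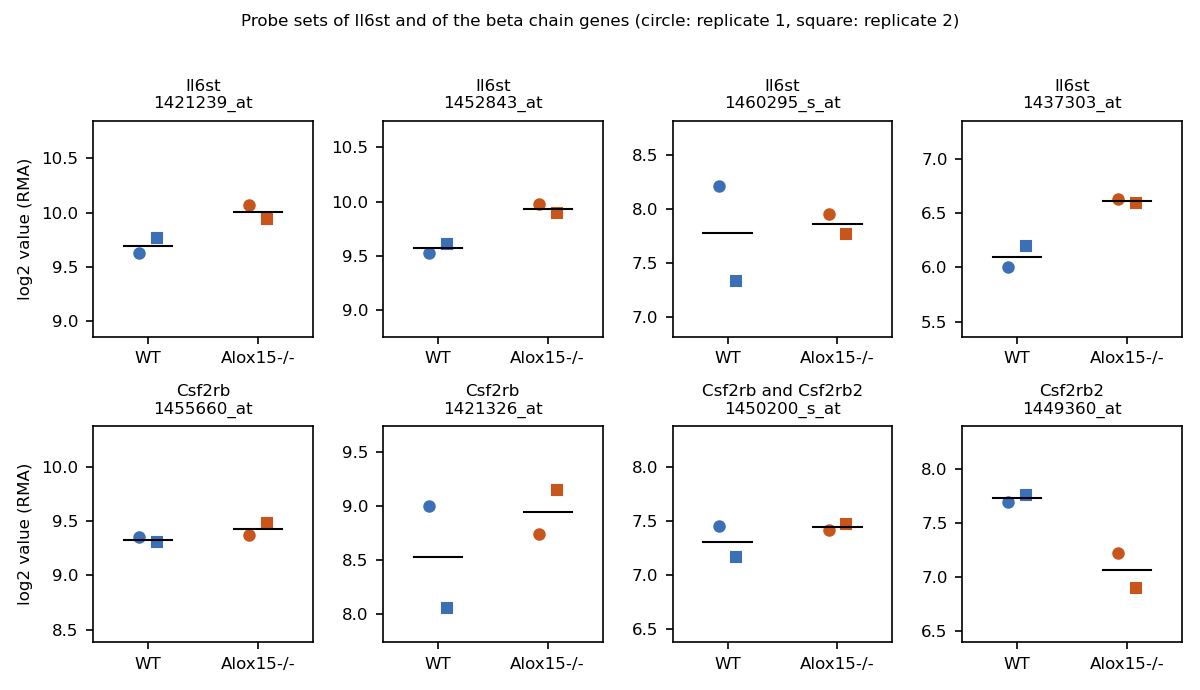
Deposited log2 value (vertical axis) on the WT and Alox15-/- arrays for the 4 probe sets of Il6st (upper row) and for those of Csf2rb, of both beta chain genes together, and of Csf2rb2 (lower row); points are arrays and lines are means of 2 arrays. Groups are apart at 3 of the 4 Il6st probe sets, and the Csf2rb2 probe set alone in the lower row has both arrays labelled Alox15-/- below both WT arrays.

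The alpha chains that bind the ligands of this family had small differences within the replicate spread. Il3ra, the interleukin-3 receptor alpha chain, read 6.21 and 6.57 in WT against 6.43 and 6.87 on the arrays labelled Alox15-/-. The groups interleave, and the difference was 0.26 ± 0.21 (SE, 95% interval -0.28 to 0.80, limma adjusted p = 0.800). It was 0.045 without Alox15-/- replicate 2 and 0.081 without WT replicate 1, against 0.48 without Alox15-/- replicate 1 and 0.45 without WT replicate 2. Csf2ra, the GM-CSF receptor alpha chain, read 8.50 and 8.12 in WT against 7.95 and 8.35 on the arrays labelled Alox15-/-, with a difference of -0.16 ± 0.21 (SE, 95% interval -0.69 to 0.37, limma adjusted p = 0.884). A second Csf2ra probe set gave 0.10 ± 0.23 (SE), of the opposite sign, and both its groups spanned about the same range, 7.41 and 7.80 in WT against 7.48 and 7.93. The direction for Csf2ra thus depended on the probe set.

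Il6st encodes gp130, and all 4 of its probe sets had a higher mean on the arrays labelled Alox15-/-. Probe set 1421239_at read 9.63 and 9.76 in WT against 10.07 and 9.94 on the arrays labelled Alox15-/-. Probe set 1452843_at read 9.53 and 9.61 against 9.97 and 9.89, and 1437303_at read 6.00 and 6.20 against 6.63 and 6.60. At these 3 probe sets both arrays labelled Alox15-/- were above both WT arrays. The fourth, 1460295_s_at, read 8.21 and 7.33 in WT against 7.95 and 7.77 in the others, so the WT arrays enclosed the others.

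In size, the Il6st differences were 0.31 ± 0.14 (SE), 0.36 ± 0.14 and 0.52 ± 0.15 at the 3 probe sets without overlap and 0.09 ± 0.31 at the fourth. For the probe set used, the difference is a level 1.24-fold higher with a 95% interval of -0.03 to 0.66 on the log2 scale. Its limma adjusted p was 0.675 over all genes. When each probe set was tested separately, adjusted p was 0.644 at 1452843_at and 0.591 at 1437303_at by limma over all probe sets, so none passed. Probe sets of a gene are read from the same RNA on the same arrays and are not replicates.

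Il6ra, the alpha chain that binds interleukin-6 and hands it to gp130, had a difference close to 0. It read 8.15 and 7.94 in WT against 8.05 and 7.98 on the arrays labelled Alox15-/-, so that the latter lay within the WT range. The difference was -0.03 ± 0.14 (SE, limma adjusted p = 0.974), and its 95% interval of -0.39 to 0.33 holds levels from 1.31-fold lower to 1.26-fold higher. The second probe set gave -0.0069.

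Csf3r, through which G-CSF drives neutrophil production, read 7.77 and 7.65 in WT against 8.26 and 7.90 on the arrays labelled Alox15-/-. The groups were apart by 0.13, which is less than the SD of 0.25 between the arrays labelled Alox15-/- (n = 2). The difference was 0.37 ± 0.17 (SE), a level 1.29-fold higher, with a 95% interval of -0.06 to 0.79 and a limma adjusted p of 0.677. Without Alox15-/- replicate 1 it was 0.19.

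Csf1r, which marks and supports monocytes and macrophages, varied as much between replicates as between the labelled groups. Its probe set 1419872_at read 8.89 and 8.35 in WT against 8.70 and 9.22 on the arrays labelled Alox15-/-. Each group held a high and a low array, and the groups overlapped. The difference was 0.34 ± 0.26 (SE, 95% interval -0.32 to 1.00, limma adjusted p = 0.792). Leaving out WT replicate 2 gave 0.064 and leaving out Alox15-/- replicate 2 gave 0.078, against 0.61 when WT replicate 1 was dropped and 0.59 for Alox15-/- replicate 1. The other probe sets gave 0.28 ± 0.22 and -0.05 ± 0.17 (SE), so the probe sets of Csf1r differed in sign.

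Il1r1, the receptor that interleukin-1 uses to push stem cells towards myeloid output, had a difference close to 0 as well. It read 9.90 and 9.91 in WT against 9.95 and 9.75 on the arrays labelled Alox15-/-, with a difference of -0.05 ± 0.14 (SE, 95% interval -0.40 to 0.30, limma adjusted p = 0.946). The WT arrays lay within the range of the others. The second Il1r1 probe set, below the bacterial controls on all arrays, gave 0.02.

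**Figure D3:**
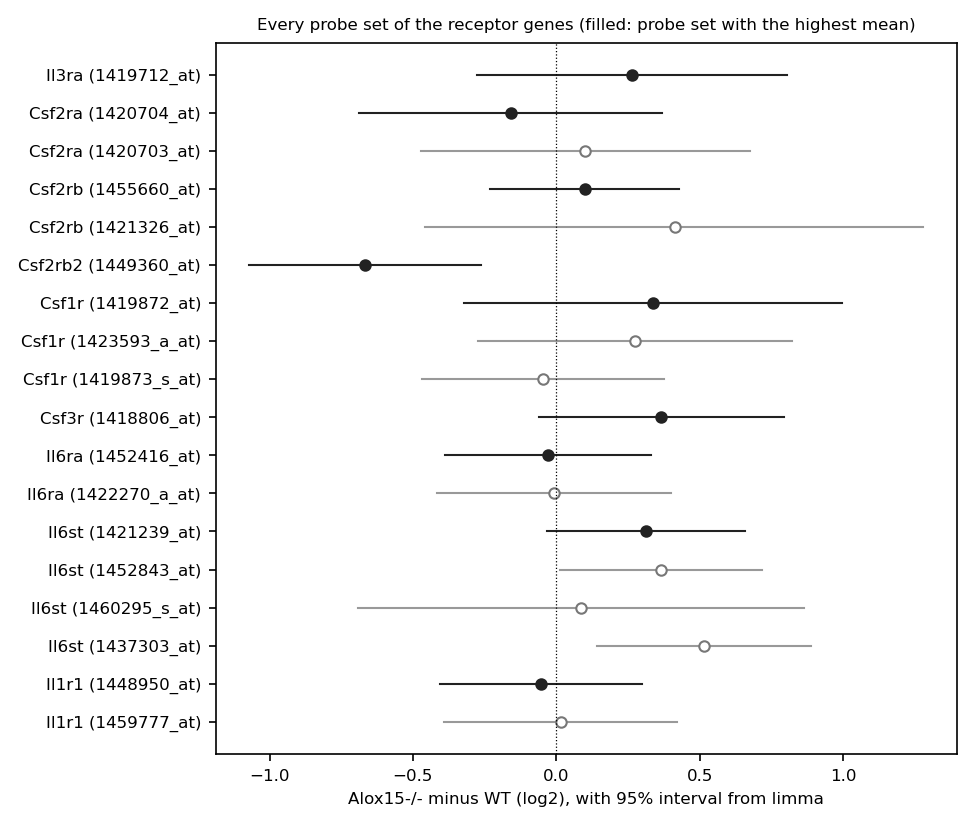
Difference between the arrays labelled Alox15-/- and WT (horizontal axis, log2) at each of the 18 probe sets of the 9 receptor genes, with the limma 95% interval as a line; filled points are the probe sets used for the genes. Apart from Csf2rb2 at -0.67, the intervals that leave out 0 belong to Il6st probe sets, at 0.36 and 0.52, and none passed adjustment.

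Promoters are shown for the 3 receptor genes whose groups were apart by more than 0.1 on the log2 scale, to set them beside the transcription factors described after them. The RefSeq table of promoters matched 8 of the 10 listed genes, with 10 windows. Each run is the 250 bases before the annotated start in build GRCm38.p6, 5′ to 3′ along the gene, with capitals for matches on either strand to AGGAAG (a core bound by PU.1 and other ETS factors), TGTGGT (RUNX), TTGCNNAA (C/EBP) or GGGCGG (GC box). The windows are chr15:78305722-78305971 on the minus strand for Csf2rb2, chr4:126024409-126024658 on the plus strand for Csf3r, and chr13:112463820-112464069 on the plus strand for Il6st.
Csf2rb2: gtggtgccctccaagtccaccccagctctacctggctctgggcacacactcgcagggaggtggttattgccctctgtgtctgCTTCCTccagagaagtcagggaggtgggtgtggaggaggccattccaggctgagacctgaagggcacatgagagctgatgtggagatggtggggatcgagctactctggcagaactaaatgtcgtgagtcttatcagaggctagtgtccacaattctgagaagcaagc
Csf3r: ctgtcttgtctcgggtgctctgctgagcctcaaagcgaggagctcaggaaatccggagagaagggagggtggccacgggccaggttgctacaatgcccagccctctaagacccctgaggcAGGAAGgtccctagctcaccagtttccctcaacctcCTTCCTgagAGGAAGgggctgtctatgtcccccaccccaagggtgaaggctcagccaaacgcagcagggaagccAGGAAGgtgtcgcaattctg
Il6st: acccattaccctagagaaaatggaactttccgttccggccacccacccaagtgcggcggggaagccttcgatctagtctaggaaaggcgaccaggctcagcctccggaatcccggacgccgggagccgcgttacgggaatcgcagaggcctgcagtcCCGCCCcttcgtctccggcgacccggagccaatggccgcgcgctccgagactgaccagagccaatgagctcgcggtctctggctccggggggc
Csf3r held 4 matches to AGGAAG, the nearest 20 to 15 bases before the start. Csf2rb2 held 1, at 168 to 163 bases before it. Il6st held none and had 1 GC box, at 93 to 88 bases. No match overlapped another in these windows. AGGAAG was found in 7 of the 10 windows of the listed genes and in 29.5% of all 32851 windows, GGGCGG in 5 against 32.7%, TTGCNNAA in 2 against 9.56% and TGTGGT in 1 against 14.0%. The 7 windows with AGGAAG include both windows of Il11ra1, which has no probe set here, and Csf2rb and Csf1r had no window. A match describes letters and not binding.

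The transcription factors known to act on myeloid receptor genes did not pass the threshold either. Of 9 measured, 0 passed adjustment by limma, 2 had an unadjusted p under 0.05, 3 had higher means in the arrays labelled Alox15-/- and 6 lower, with a median difference of -0.05. Spi1, which encodes PU.1, read 7.82 and 7.92 in WT against 7.89 and 7.74 on the arrays labelled Alox15-/-, overlapping groups. Irf8, a monocyte factor, read 8.54 and 8.58 against 9.36 and 8.998, and Cebpa, which starts the granulocyte-monocyte programme, read 9.42 and 9.56 against 9.94 and 9.85. Both were higher on both arrays labelled Alox15-/-, by 0.62 ± 0.17 and 0.41 ± 0.13 (SE), with limma adjusted p = 0.578 and 0.618. Runx1 differed by -0.32 ± 0.16 (SE, limma adjusted p = 0.691), and its other probe sets ran from -0.07 to 0.59.

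Most ligands of these receptors read near or below the bacterial controls in these cells. Of 10 ligand genes, Il3, Csf3, Il6, Il34, Il1a and Il1rn (6 genes) were below the highest control on every array, and Csf1 and Il1b were above it on every array. None of the 10 passed the threshold by limma, and 1 had an unadjusted p under 0.05. Il1b, an interleukin-1 ligand, read 5.37 and 5.43 in WT against 5.67 and 5.97 on the arrays labelled Alox15-/-, a difference of 0.42 ± 0.16 (SE, limma adjusted p = 0.633). Csf1, which encodes M-CSF, differed by 0.33 at the probe set used, and by -0.45, 0.15 and 0.29 at its others.

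Among partner, related and decoy receptors, 8 of 10 were measured, 0 passed the threshold by limma and 2 had an unadjusted p under 0.05. Il1r2, a decoy that binds interleukin-1 without signalling, read 5.63 and 6.00 in WT against 5.05 and 4.99 on the arrays labelled Alox15-/-. Both WT arrays were higher, and both arrays labelled Alox15-/- lay below the highest bacterial control, so they give only a bound. Against that control, WT was at least 1.62-fold higher, and the measured difference was -0.80 ± 0.17 (SE, limma adjusted p = 0.503). Il18r1, a relative of Il1r1 that binds interleukin-18, differed by 0.35 ± 0.13 (SE, limma adjusted p = 0.630). Il1rap, the partner chain that Il1r1 needs to signal, differed by 0.22 ± 0.15 (SE, limma adjusted p = 0.760), with -0.40 to 0.30 at its other probe sets.

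Other cytokine receptors of blood cells gave 14 measured genes of 16, with 0 past the threshold by limma, 1 at an unadjusted p under 0.05 and a median of -0.02. All 14 were above the bacterial controls on every array. Il10ra, a chain of the interleukin-10 receptor, differed by 0.47 ± 0.17 (SE, limma adjusted p = 0.630), with 0.00125 and -0.08 at its other probe sets, and Tnfrsf1a, a receptor of tumour necrosis factor, by 0.28. Kit, the stem cell factor receptor used in the sort, read 10.63 and 10.48 in WT against 10.34 and 10.23 on the arrays labelled Alox15-/-, a difference of -0.27 ± 0.14 (SE, limma adjusted p = 0.695).

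Downstream of the receptors, 29 of 33 signalling genes were measured. Of these 0 passed the threshold by limma, 2 had an unadjusted p under 0.05, 12 had higher and 17 lower means in the arrays labelled Alox15-/-, and the median was -0.02. Cish, a feedback gene induced by STAT5, read 7.32 and 7.60 in WT against 6.96 and 7.03 on the arrays labelled Alox15-/-, a difference of -0.47 ± 0.15 (SE, limma adjusted p = 0.618). Socs3, the feedback gene of the gp130 and G-CSF receptors, read 5.63 and 6.39 in WT against 6.42 and 6.69 in the others. Its groups were apart by less than the spread within WT, and the difference was 0.54 ± 0.27 (SE, limma adjusted p = 0.691), with 0.11 and 0.35 at its other probe sets. Fes, a tyrosine kinase of the myeloid lineage, differed by 0.46 ± 0.22 (SE, limma adjusted p = 0.687).

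**Figure D4:**
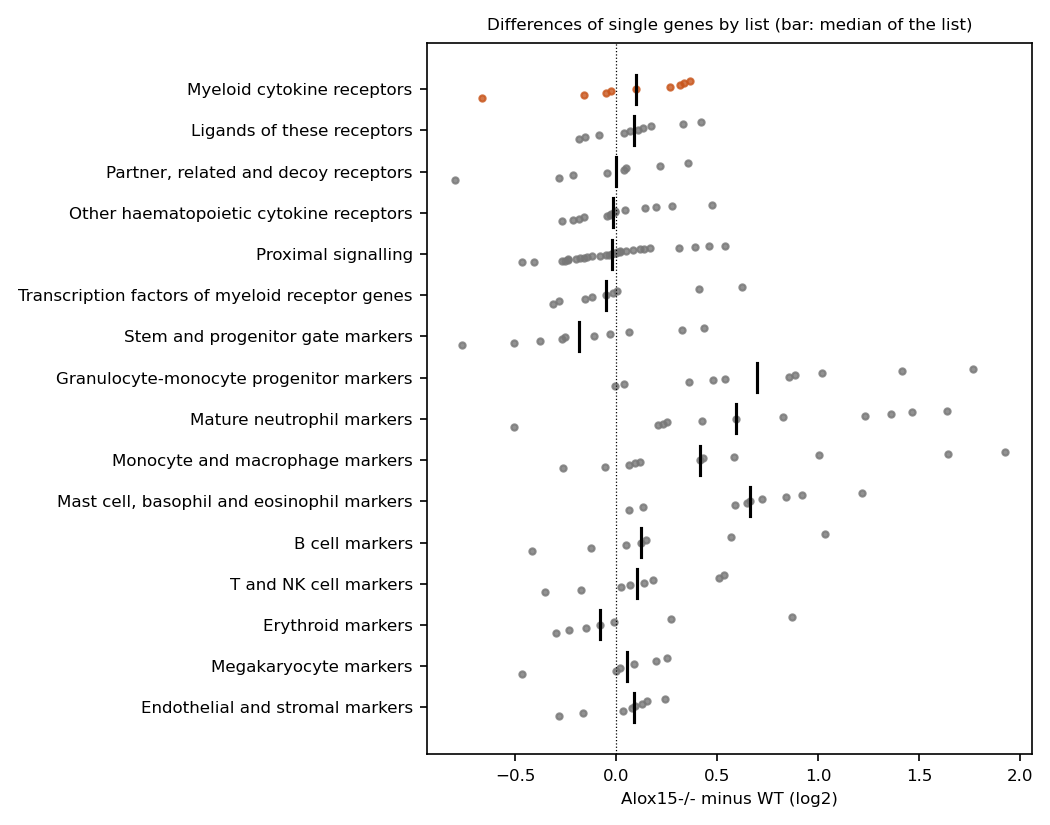
Difference between the arrays labelled Alox15-/- and WT (horizontal axis, log2) for each measured gene of the receptors, of the other pathway lists and of the cell type marker lists (rows); bars are list medians. The receptors have a median of 0.10, the granulocyte-monocyte progenitor markers 0.70 and the mature neutrophil markers 0.59. The list labelled stem and progenitor gate markers has -0.18, and Kit alone of its measured genes belongs to the stated gate.

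Markers of myeloid cells had median differences of 0.42 to 0.70 on the log2 scale in 4 lists. Outside the granulocyte-monocyte progenitor list, these medians also count markers not above the bacterial controls on every array. Markers of the sorted stem and progenitor population had a median of -0.18. A sort for Lin- cells is meant to remove mature neutrophils, macrophages, lymphocytes and erythroid cells, and the labels do not list the lineage antibodies. Over 10 measured markers of granulocyte-monocyte progenitors, the mean log2 value was 8.48 and 8.68 in WT against 9.23 and 9.39 on the arrays labelled Alox15-/-. Of them 9 had higher means in the latter, with a median difference of 0.70, 0 passed the threshold by limma and 6 had an unadjusted p under 0.05. F13a1, Ctsg and Ms4a3, genes of monocyte and granulocyte precursors, differed by 1.76, 1.42 and 1.02.

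Of 11 measured mature neutrophil markers, whose cells express Csf3r, 10 had higher means, with list means of 5.53 and 6.26 in WT against 6.75 and 6.45. S100a8, which encodes an abundant neutrophil protein, read 6.56 and 8.23 in WT against 9.14 and 8.92, a difference of 1.64 that was 0.80 without WT replicate 1. Its partner S100a9 differed by 1.46, and by 0.91 without the same array. Ltf, a granule gene, read 6.09 and 6.25 against 8.17 and 6.89, a difference of 1.36 that was 0.72 without Alox15-/- replicate 1. Itgam, an integrin gene of myeloid cells, was lower on both arrays labelled Alox15-/-, by -0.51 ± 0.16 (SE, limma adjusted p = 0.610), while Mmp8 and Cd177 were below the bacterial controls on all arrays.

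Monocyte and macrophage markers, whose cells express Csf1r, had list means of 5.70 and 6.17 in WT against 6.69 and 6.26 on the arrays labelled Alox15-/-, with 9 of 11 higher. Of these 11, only 5 were above the bacterial controls on every array. They were C1qa, given below, Lyz2, Fcgr1 and Cx3cr1 with differences of 0.06, 0.09 and 0.12, and Cd68 with -0.27. C1qb, which enters the list means, read 4.92 and 7.55 in WT against 9.53 and 6.225. Its groups overlapped, and its difference was 1.64 ± 1.3 (SE). Mrc1 read 4.24 and 5.24 in WT against 7.30 and 6.03, with WT replicate 1 below the bacterial controls, so its difference of 1.92 includes 1 array not above them and was 1.42 without it. C1qa differed by 0.42. Ccr2 was below the controls in WT and at least 1.44-fold higher in the other group, and Adgre1, a defining macrophage gene, was below them on all arrays. Mast cell, basophil and eosinophil markers, whose cells use interleukin-3, had 9 of 9 higher means and list means of 6.29 and 5.83 in WT against 6.73 and 6.67. Cpa3, a mast cell protease gene, differed by 0.84. Prg2 was above the bacterial controls on 1 array, Alox15-/- replicate 1, so its difference of 1.22 rests on that array and gives no bound between the groups. Fcer1a and Epx were below the controls on all arrays, and 6 of the 9 markers were above them on every array. Of 10 measured stem and progenitor markers, of which Kit alone belongs to the stated gate, 7 had lower means on the arrays labelled Alox15-/-. The list means were 10.71 and 10.66 in WT against 10.53 and 10.54. Hlf was at -0.77, Meis1 at -0.51 and Cd48 at 0.43. The part of these marker differences in the receptor values was not tested.

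B cell, T and NK cell, erythroid, megakaryocyte, and endothelial and stromal markers had medians of 0.12, 0.10, -0.08, 0.05 and 0.08, with members on both sides. Klf1, a transcription factor of red cell precursors, read 5.41 and 5.57 in WT against 6.35 and 6.36 on the arrays labelled Alox15-/-. Its difference of 0.87 ± 0.14 (SE, limma adjusted p = 0.373) had the lowest unadjusted p of any listed gene, 0.00105. Of the 7 measured erythroid markers, however, 5 had lower means on the arrays labelled Alox15-/-. Vpreb1 and Igll1, which encode the surrogate light chain of B cell precursors, differed by 1.03 and 0.57. Vpreb1 was at 0.42 without Alox15-/- replicate 1, and a second Igll1 probe set gave 0.06. Ebf1, a B cell factor, was at -0.42, with -0.36 to 0.46 at its other probe sets. Among T and NK cell markers Cd8a, Nkg7 and Lat differed by 0.54, 0.51 and -0.36, with Cd8a at 0.20 without Alox15-/- replicate 2 and at -0.12 to 0.33 at its other probe sets. None of the megakaryocyte, endothelial and stromal markers had an unadjusted limma p under 0.05.

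Over the 15 lists beside the receptors, 0 of 155 genes passed the threshold by limma and 36 had an unadjusted p under 0.05, which is 23.2% against 7.77% of all genes. The marker lists held 28 of these among 87 genes (32.2%) and the other pathway lists 8 among 70 (11.4%), with genes in both counted in each. The lists were chosen with earlier results of these data known, so these shares describe the lists and do not test them.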

How the data were processed

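The deposited table gives log2 values per probe set, which the authors made with Affymetrix Expression Console 1.1 and RMA, per the submitters' processing notes. RMA subtracts background, quantile-normalizes arrays and summarises probe sets. The 4 arrays take 1195 to 1228 distinct values each, so small differences are coarse, and the number of arrays limits the precision. The labels' protocols name a sense-target labelling kit, whereas probe sets of the platform named in the probe table are, as background knowledge, designed for antisense targets. No source used here says how kit and array were matched, and the effect on the values was not tested. The platform's probe table named the probe sets. Of 45101 probe sets, 932 had several symbols and 9211 had none in the table used. The sources used here name no genome build, so RefSeq GRCm38.p6 served for promoters and gene order alone.

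The arrays labelled Alox15-/- were compared with WT with limma's moderated test (version 3.58.1, R 4.3.3; two-sided, without a block), and p-values were adjusted by Benjamini-Hochberg over 18194 genes. The code was tested on simulated data. Named genes were the 9 measured receptors, Alox15 and, per other list, up to 3 genes with the largest differences among those without overlap between groups. Spi1, Procr, Mmp8, Cd177, Adgre1, C1qb, Epx, Fam107b, Itgam and ligands other than Csf1 and Il1b were named after their values were seen. So were Lyz2, Fcgr1, Cx3cr1 and Cd68. Members and lists were chosen with earlier results of these data known. Figures were drawn with matplotlib 3.10.9. The planned protein comparison was not run. Alternatives covered normalization, dim genes, variance moderation, array weights, probe sets, a replicate block and leaving out each array.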

Additional observations from a re-analysis of the deposited data

How the results depend on the processing

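None of the 9 receptor genes passed the limma threshold under any of 16 alternatives, with a lowest adjusted p of 0.381. Of 143 recomputed differences, 138 kept their sign, but many of them could not change it. Dropping dim genes, changing the variance moderation, adding the block or testing every probe set leaves the difference at the same probe set unchanged. The other probe sets of opposite sign, found in 3 of the genes, were not counted as reversals. The 5 reversed differences belong to fits without 1 array, over which Csf2ra ran from -0.36 to 0.041, Il1r1 from -0.15 to 0.049 and Il6ra from -0.13 to 0.076. Over the same fits Csf2rb2 ran from -0.83 to -0.51, Il6st from 0.25 to 0.38, Il3ra from 0.045 to 0.48, Csf2rb from 0.041 to 0.16, Csf3r from 0.19 to 0.54, and the receptors' median from 0.045 to 0.16, with 0 genes past the threshold in each. The median was 0.19 when all probe sets of a gene were averaged and 0.035 without the lowest 50 percent of genes, which left 8 receptors. Over all genes, a mean-dependent prior variance gave 22 genes, testing every probe set gave 2 (Alox15 and Fam107b) and no variance moderation gave 0. With the replicate block 1 gene passed, Alox15, and no receptor call changed. The replicate numbers showed no sign of pairing (r = -0.0214 across genes between the deviations of replicate 1 in the groups). With 2 arrays per group, this value cannot exclude a pairing. Without the lowest 50 percent of genes Il3ra had no value.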
